A study of Mus musculus with 15 samples.

Results

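Cytosolic RNA sensors and editors were followed as 6 genes in mouse macrophages: Ddx58 (now Rigi), Ifih1, Dhx58, Eif2ak2, Zbp1 and Adar. They were picked by name, and every probe annotated to one of these symbols was taken. This gave 9 probes, 3 for Adar, 2 for Zbp1 and 1 for each other gene. All 6 genes passed the detection filter, out of 10900 symbols in the table and 7669 genes tested.

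The macrophages were grown from bone marrow of C57Bl/6 mice, and their RNA was measured on 15 Illumina bead arrays in 6 groups. Cells had 18 h of IFNγ and then 6 h of LPS (IFNγ+LPS, 3 arrays), 18 h of IFNβ and then 6 h of LPS (IFNβ+LPS, 2 arrays), 6 h of LPS with no interferon (LPS, 2 arrays), 18 h of IFNγ (3 arrays), 18 h of IFNβ (2 arrays), or none of these (control, 3 arrays). IFNγ is the type II interferon and IFNβ a type I interferon; LPS is the lipopolysaccharide of Gram-negative bacteria, here ultrapure and from Escherichia coli, that Toll-like receptor 4 recognises. The study asked how interferon priming alters the response of macrophages to LPS. No interferon dose is given in the sources used here, the labelled LPS dose of 10 ng/µl has a doubtful unit, and it is not recorded whether cells without LPS spent the same extra hours in culture.

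Most RNA of a healthy cell carries marks or structures that keep it from being read as foreign, and the 6 genes deal with RNA that lacks them. RIG-I, encoded by Ddx58, and MDA5, encoded by Ifih1, are helicases that bind double-stranded RNA in the cytosol and signal through the mitochondrial adaptor MAVS to IFNβ, while LGP2, encoded by Dhx58, binds such RNA without a signalling domain and tunes the other helicases. Eif2ak2 encodes PKR, a kinase that halts translation when it binds double-stranded RNA, Zbp1 encodes a sensor of Z-form nucleic acid that can start necroptosis, and Adar encodes an enzyme that turns adenosine into inosine in double-stranded RNA and so keeps self RNA from these sensors. All are classed as interferon-stimulated genes.

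The promoter windows of 3 of these genes hold a core of the interferon-stimulated response element, the element that interferon regulatory factors bind, and are shown for that reason. They come from RefSeq on build GRCm38.p6, run 5′ to 3′ on the gene's own strand and span 250 bases before the transcript start and 50 from it on. Capitals mark each match to GAAANNGAAA or its reverse complement TTTCNNTTTC. The window of Ifih1 lies at chr2:62646206-62646505, Ddx58 at chr4:40239776-40240075 and Eif2ak2 at chr17:78882523-78882822, all on the minus strand.
Ifih1: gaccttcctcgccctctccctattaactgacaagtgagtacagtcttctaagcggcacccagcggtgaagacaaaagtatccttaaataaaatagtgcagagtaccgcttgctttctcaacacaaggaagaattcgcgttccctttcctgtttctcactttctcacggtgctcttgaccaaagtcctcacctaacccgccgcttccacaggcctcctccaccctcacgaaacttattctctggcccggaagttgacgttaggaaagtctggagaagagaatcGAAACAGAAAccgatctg
Ddx58: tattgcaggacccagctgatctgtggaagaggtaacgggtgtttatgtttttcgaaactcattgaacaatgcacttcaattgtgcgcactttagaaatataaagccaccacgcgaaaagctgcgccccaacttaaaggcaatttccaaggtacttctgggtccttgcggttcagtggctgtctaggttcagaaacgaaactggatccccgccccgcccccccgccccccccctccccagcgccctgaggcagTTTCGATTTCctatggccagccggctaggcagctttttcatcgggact
Eif2ak2: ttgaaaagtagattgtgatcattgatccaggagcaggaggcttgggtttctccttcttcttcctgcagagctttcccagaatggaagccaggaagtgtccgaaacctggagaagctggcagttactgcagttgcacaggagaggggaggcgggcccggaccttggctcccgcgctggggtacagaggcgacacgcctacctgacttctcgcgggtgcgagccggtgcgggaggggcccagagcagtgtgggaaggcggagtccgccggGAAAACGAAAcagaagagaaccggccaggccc
Counted from 1 at the first transcribed base, the match began at position 33 in Ifih1, at position 3 in Ddx58, where it lay on the opposite strand, and at position 19 in Eif2ak2. This core was present in 3.44% of all 32851 windows of the same length. Adar has 3 windows in the table on chromosome 3, for 3 transcript starts, and none held an exact match to the core. The window at chr3:89730468-89730767 holds gaaagtgaac, which differs from the core in its last base and was not counted. These matches describe letters and are not evidence of binding. Dhx58 and Zbp1 have no sequence in the table.

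Separate cultures or mice are not stated for the arrays of a group, so a p-value here measures the spread between arrays, which may be technical. Median raw intensity per array ran from 143 to 241, that is 1.37 to 1.74 times the background, and the number of arrays limits the precision. One slide held all 7 LPS-treated arrays and another the 8 without LPS. LPS and slide therefore cannot be told apart, while every comparison between interferons or against no interferon was made within a slide. The arrays IFNγ+LPS 1 and IFNγ 1 stood apart from their companions. On the second principal component IFNγ+LPS 1 scored 2.0, against 19.1 and 18.6 for the other IFNγ+LPS arrays and -22.0 and -18.2 for the LPS arrays. On the third, IFNγ 1 scored 23.2, against 5.9 and 8.3 for the other IFNγ arrays. On the fourth, IFNβ+LPS 1 and 2 scored -11.9 and 14.3, and the LPS arrays -13.3 and 0.76. A group of 2 arrays cannot show which array is odd, but IFNβ+LPS 2 is counted below among the 3 that stood apart. Calls that change without these 3 arrays are given both ways. Of 10 macrophage markers 7 were in the table, and 6 of these (Adgre1, Mertk, Fcgr1, Lyz2, Cd14 and Mrc1) were detected on all 15 arrays, whereas no marker of T and NK cells, B cells, mast cells or erythroid cells was. Of 5 neutrophil markers in the table, S100a8 and S100a9 were. Only 3 of 8 T and NK cell, 2 of 5 B cell, 2 of 5 mast cell and 1 of 4 erythroid markers were in the table. The B cell marker Cd79b was detected on 11 arrays, so other cell types were hardly tested. With bulk RNA, fewer cells of a type and less RNA per cell cannot be told apart.

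Levels of the sensors are given first, in log2 units of background-corrected and quantile-normalized intensity. Ddx58 stood at 11.01, 9.98 and 10.05 on IFNγ+LPS arrays, 11.17 and 11.67 on IFNβ+LPS arrays, and 11.10 and 11.18 on LPS arrays. Without LPS it stood at 7.81, 7.08 and 7.31 with IFNγ, 8.16 and 7.68 with IFNβ, and 7.23, 7.02 and 6.42 in control. Every LPS-treated array was far above every array without LPS. The IFNγ+LPS arrays were the lowest of the LPS-treated ones, although IFNγ+LPS 1 lay about 1 log2 unit above its companions and came close to the LPS arrays. Without LPS, the IFNβ arrays lay above all control arrays, and IFNγ overlapped with both other groups.

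Ifih1 was below background on all 8 arrays without LPS and detected on all 7 with it. It stood at 8.95, 8.72 and 9.09 on IFNγ+LPS arrays, 9.40 and 9.84 on IFNβ+LPS arrays, and 8.90 and 9.41 on LPS arrays. The 3 groups formed one range in which only the IFNγ+LPS and IFNβ+LPS arrays did not overlap. Its readings without LPS, 4.84 to 5.35 with IFNγ, 5.05 to 5.18 with IFNβ and 4.49 to 4.89 in control, are background and carry no order.

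Dhx58 was the one member whose 6 groups did not overlap at any point. How many of all genes separate in this way was not counted. With LPS it stood at 10.89, 10.92 and 10.71 on IFNγ+LPS arrays, 11.60 and 11.72 on IFNβ+LPS arrays, and 11.16 and 11.12 on LPS arrays. Without LPS it stood at 10.15, 9.82 and 9.89 with IFNγ, 9.11 and 9.06 with IFNβ, and 8.16, 7.87 and 7.71 in control. By group mean the order was IFNβ+LPS, LPS, IFNγ+LPS, IFNγ, IFNβ and control. In limma neither IFNβ+LPS (adjusted p 0.227) nor IFNγ+LPS (adjusted p 0.246) was called against LPS. IFNγ alone brought Dhx58 within 0.89 log2 units of its IFNγ+LPS level.

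Of the effectors, Eif2ak2 stood at 13.09, 12.66 and 12.98 on IFNγ+LPS arrays, 13.41 and 13.41 on IFNβ+LPS arrays, and 13.33 and 13.31 on LPS arrays. Without LPS it stood at 11.04, 11.36 and 11.32 with IFNγ, 11.15 and 11.27 with IFNβ, and 10.56, 10.52 and 10.24 in control. The groups did not overlap except for the 2 interferons without LPS, which shared one range. How many of all genes separate in this way was not counted. In limma neither IFNβ+LPS (0.09, adjusted p 0.896) nor IFNγ+LPS (-0.41, adjusted p 0.125) was called against LPS.

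Zbp1 stood at 9.19, 9.65 and 9.72 on IFNγ+LPS arrays, 9.90 and 9.55 on IFNβ+LPS arrays, and 9.30 and 9.13 on LPS arrays. Without LPS it stood at 7.98, 7.96 and 7.87 with IFNγ, 6.59 and 6.77 with IFNβ, and 6.41, 6.60 and 6.47 in control. The IFNγ arrays formed a step of their own, well above IFNβ and control, which overlapped. Under LPS the IFNγ+LPS arrays overlapped with both other groups.

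Adar, the editor, stood at 9.37, 9.61 and 9.42 on IFNγ+LPS arrays, 9.44 and 10.37 on IFNβ+LPS arrays, and 9.37 and 9.49 on LPS arrays. Without LPS it stood at 7.86, 7.30 and 7.54 with IFNγ, 6.90 and 6.84 with IFNβ, and 6.48, 6.43 and 6.77 in control. The IFNγ arrays again lay between the LPS-treated arrays and the others. Only IFNβ+LPS 2, counted among the arrays that stood apart, was clearly above the rest of the LPS-treated arrays.

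**Figure D1:**
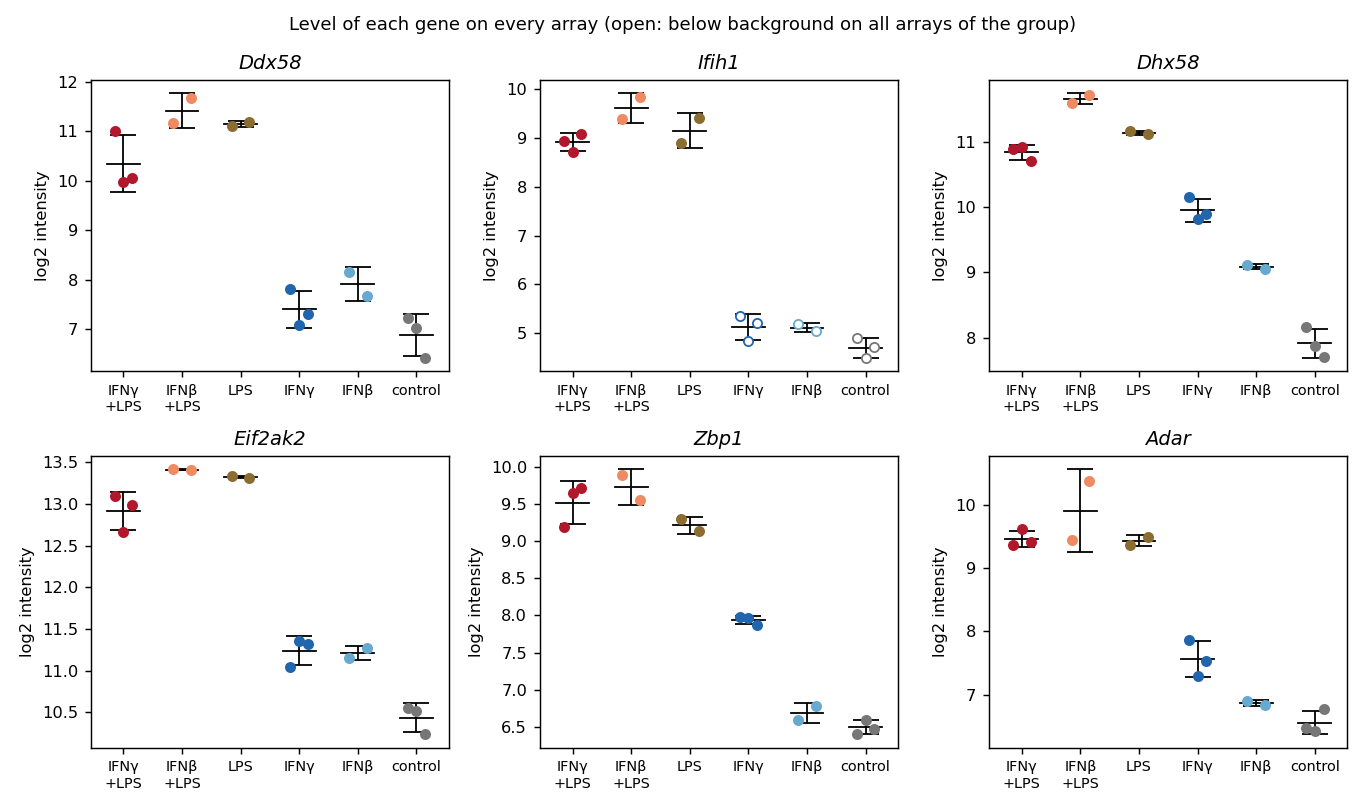
Log2 intensity of each gene on every array (points), by group, with the group mean and SD (bars, n = 2 or 3); each panel has its own axis and levels of different genes are not comparable. All 7 LPS-treated arrays are above all 8 others for each gene, on a slide of their own. How many of all genes separate in this way was not counted, and 21.2% were called higher with LPS than in control. Dhx58 and Zbp1 are higher in IFNγ than in IFNβ macrophages, and the open points of Ifih1 are below background.

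The first comparison asks what interferon alone did to these genes. IFNγ raised 4 of the 6 genes over control: Dhx58 by 4.11-fold, Zbp1 by 2.72-fold, Adar by 2.01-fold and Eif2ak2 by 1.75-fold. No member was called lower. Over all genes tested, 11.5% were called higher and 14.6% lower. The helicases that signal through MAVS were not called: Ddx58 differed by 0.51 ± 0.29 log2 units (SE), with an adjusted p of 0.222, and Ifih1 was below background on all IFNγ and control arrays. The log2 difference was 2.04 ± 0.14 for Dhx58, with an adjusted p of 9.1e-08, by limma with Benjamini-Hochberg adjustment over the 7669 genes. It was 1.45 ± 0.16 for Zbp1 (adjusted p 7.68e-06), 1.01 ± 0.21 for Adar (0.00256) and 0.80 ± 0.15 for Eif2ak2 (0.000962). The median log2 difference of the 5 genes other than Ifih1 was 1.01, beside -0.07 over all genes tested.

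IFNβ raised 2 of the 6, Dhx58 by 2.25-fold and Eif2ak2 by 1.71-fold, and lowered none, where 0.952% of all genes were called higher and 0.17% lower. The log2 difference was 1.17 ± 0.16 for Dhx58 (SE, adjusted p 0.00137) and 0.77 ± 0.16 for Eif2ak2 (adjusted p 0.0336). The call of Eif2ak2 was fragile and was lost in 14 of 29 alternatives, over which its adjusted p ran from 0.00328 to 0.370. Ddx58 had a difference of 1.03 ± 0.32 log2 units and was not called, with an adjusted p of 0.256 in limma. That p was 0.0450 without the 3 arrays that stood apart and 0.0365 with array weights. Zbp1, at 0.19 (95% interval -0.19 to 0.56), and Adar, at 0.31 (-0.19 to 0.82), were not called. The median of the 5 genes other than Ifih1 was 0.77, beside -0.0015 over all genes tested.

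Set against each other, IFNγ exceeded IFNβ at Zbp1, by 2.39-fold (log2 difference 1.26 ± 0.17, adjusted p 0.000137), and at Dhx58, by 1.82-fold (0.87 ± 0.16, adjusted p 0.00137). Of all genes 9.58% were called higher and 11% lower in this comparison, and no member was lower. Adar missed the threshold narrowly, with a difference of 0.69 ± 0.24 and an adjusted p of 0.0511, and passed it in 12 of 29 alternatives, among them at 0.55 with an adjusted p of 0.0312 without the 3 arrays that stood apart. Eif2ak2 had nearly the same level with both, with a difference of 0.03 and a 95% interval of -0.32 to 0.38. Ddx58 was the one gene with a lower mean in IFNγ than in IFNβ macrophages, by -0.52 ± 0.32, with overlapping arrays and an adjusted p of 0.292. Interferon doses are not known here, so type and dose of interferon cannot be told apart.

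LPS alone raised all 6 genes, with larger differences from control than either interferon gave; the gap between LPS and interferon was not tested. Against control, Ddx58 was 19.1-fold higher, Dhx58 9.37-fold, Eif2ak2 7.38-fold, Adar 7.33-fold and Zbp1 6.60-fold. Ifih1 was at least 12.4-fold higher, a bound set by the lowest signal detected on the control arrays, because Ifih1 was below background there. The log2 difference ran from 2.72 ± 0.17 for Zbp1 to 4.26 ± 0.32 for Ddx58, among the 5 genes with a measured control level. For these 5 the adjusted p in limma was at most 1.54e-07. Ifih1 passed the detection filter only through LPS-treated groups, so its test against background readings is not counted here. Of all genes 21.2% were called higher and 34% lower. The median of the 6 was 3.06 log2 units, with Ifih1 at its bound, beside -0.17 over all genes tested. That background median was -0.03 under median scaling and -0.01 under cyclic loess, and 38.4% of all calls were higher ones, against 47.0% and 49.3%.

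After interferon the 6 genes still rose with LPS. In IFNγ-primed cells LPS raised Ddx58 by 7.71-fold, Adar by 3.73-fold, Eif2ak2 by 3.19-fold, Zbp1 by 2.997-fold, Dhx58 by 1.85-fold and Ifih1 by at least 10.4-fold, where 21.6% of all genes were called higher and 31.7% lower. In IFNβ-primed cells it raised Ddx58 by 11.3-fold, Zbp1 by 8.25-fold, Adar by 8.20-fold, Dhx58 by 5.96-fold, Eif2ak2 by 4.60-fold and Ifih1 by at least 17.4-fold, where 21.1% were called higher and 34% lower. Leaving out Ifih1, whose levels without LPS are background, the largest adjusted p in limma was 0.000128, for Dhx58 after IFNγ. The summed level of the 4 dendritic cell markers in the table, of 9 listed, moved with LPS as well. On the intensity scale it was 4907 to 6721 on IFNγ+LPS, 6721 to 8078 on IFNβ+LPS and 5569 to 6430 on LPS arrays, against 2215 to 2380 on IFNγ, 2656 to 2846 on IFNβ and 2410 to 2593 on control arrays. The sum was carried by Tcf4, the one of the 4 detected on all arrays. Clec9a was detected on all IFNγ and IFNγ+LPS arrays and no other, Ccr7 on IFNγ+LPS arrays alone, and Siglech on both LPS arrays and 1 IFNβ+LPS array. The part of this shift in the results was not tested.

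**Figure D2:**
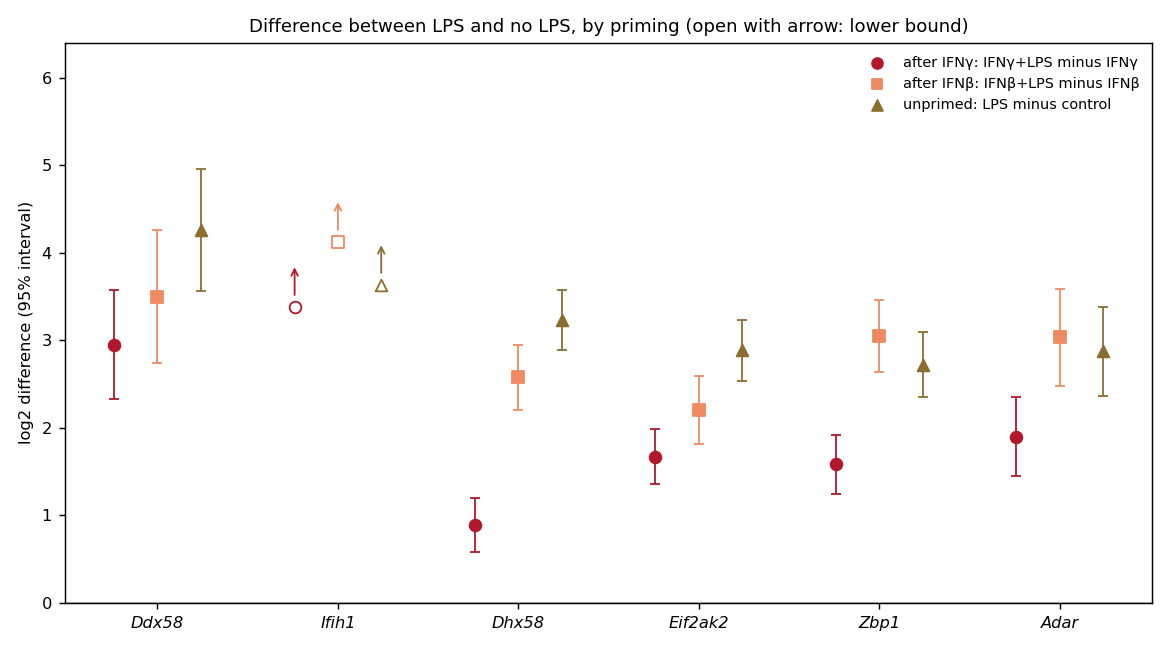
Log2 difference between LPS-treated cells and cells in the same priming state without LPS, for each gene, with its 95% interval. For the 5 genes with a measured level without LPS the IFNγ-primed response (circles) is the smallest of the 3, from 0.89 for Dhx58 to 2.95 for Ddx58; the open symbols of Ifih1 are lower bounds with no interval and carry no order.

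After IFNγ and then LPS, 4 of the 6 means were below those of LPS alone and 2 above, by at most 0.79 log2 units, and no member was called in either direction. With limma, 2 of the 6 had an unadjusted p under 0.05, as had 2080 of the 7669 genes tested. By adjusted p, 6.81% of all genes were called higher and 5.97% lower. The largest difference was that of Ddx58, at -0.79 ± 0.32 log2 units with an adjusted p of 0.130. The call was gained in 4 of 29 alternatives. Of these, 2 kept all arrays, with an adjusted p of 0.0377 without background correction and 0.0390 with array weights. Without IFNγ+LPS 1 the difference was -1.12 with an adjusted p of 0.0154, and without all 3 arrays that stood apart it was -1.12 with an adjusted p of 0.00716. Leaving out these 3 also gave adjusted p-values of 0.0388 for Eif2ak2, at -0.50, and 0.0255 for Zbp1, at 0.47. On all arrays Eif2ak2 differed by -0.41 ± 0.16 (adjusted p 0.125), Dhx58 by -0.30 ± 0.16 (0.246) and Zbp1 by 0.31 ± 0.17 (0.282). For Adar the difference was 0.03 with a 95% interval of -0.47 to 0.54, and for Ifih1 -0.23 with an interval of -0.69 to 0.22.

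With IFNβ priming before LPS all 6 means on the brightest probes were above those of LPS alone, by 0.09 log2 units for Eif2ak2 to 0.52 for Dhx58, and none passed the test. Here 2 had an unadjusted p under 0.05 in limma, Dhx58 (adjusted p 0.227) and Zbp1 (adjusted p 0.271), as had 945 of the 7669 genes tested. By adjusted p, 0.339% of all genes were called higher and 0.222% lower. For Ddx58 the interval ran from -0.48 to 1.04, which leaves room for a change of either sign.

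Between the primed groups under LPS, IFNγ+LPS lay below IFNβ+LPS at the 3 RIG-I-like helicases. Ddx58 was lower by a log2 difference of -1.07 ± 0.32 (adjusted p 0.0427), Dhx58 by -0.82 ± 0.16 (0.00385) and Ifih1 by -0.69 ± 0.21 (0.0450). Of all genes 6.83% were called higher and 6.58% lower. The call of Dhx58 held in all alternatives but one, in which only the 2 groups were fitted and its adjusted p was 0.0595. That of Ddx58 was lost in 15 of 29 alternatives, with adjusted p from 0.00422 to 0.277, and that of Ifih1 in 19 of 28, with adjusted p from 0.00915 to 0.333. Without the 3 arrays that stood apart, Ddx58 was at -1.15 (adjusted p 0.0257) and Ifih1 at -0.49 (adjusted p 0.258), with a single IFNβ+LPS array left that is assumed to vary like the other groups. Eif2ak2 differed by -0.50 (adjusted p 0.0620), Adar by -0.44 (0.240) and Zbp1 by -0.20 (0.479). Adar rested on 1 array here: it was at -0.90 with an adjusted p of 0.0228 without IFNβ+LPS 1, which again leaves a single IFNβ+LPS array, and at 0.07 with an adjusted p of 0.850 without the 3 arrays that stood apart.

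**Figure D3:**
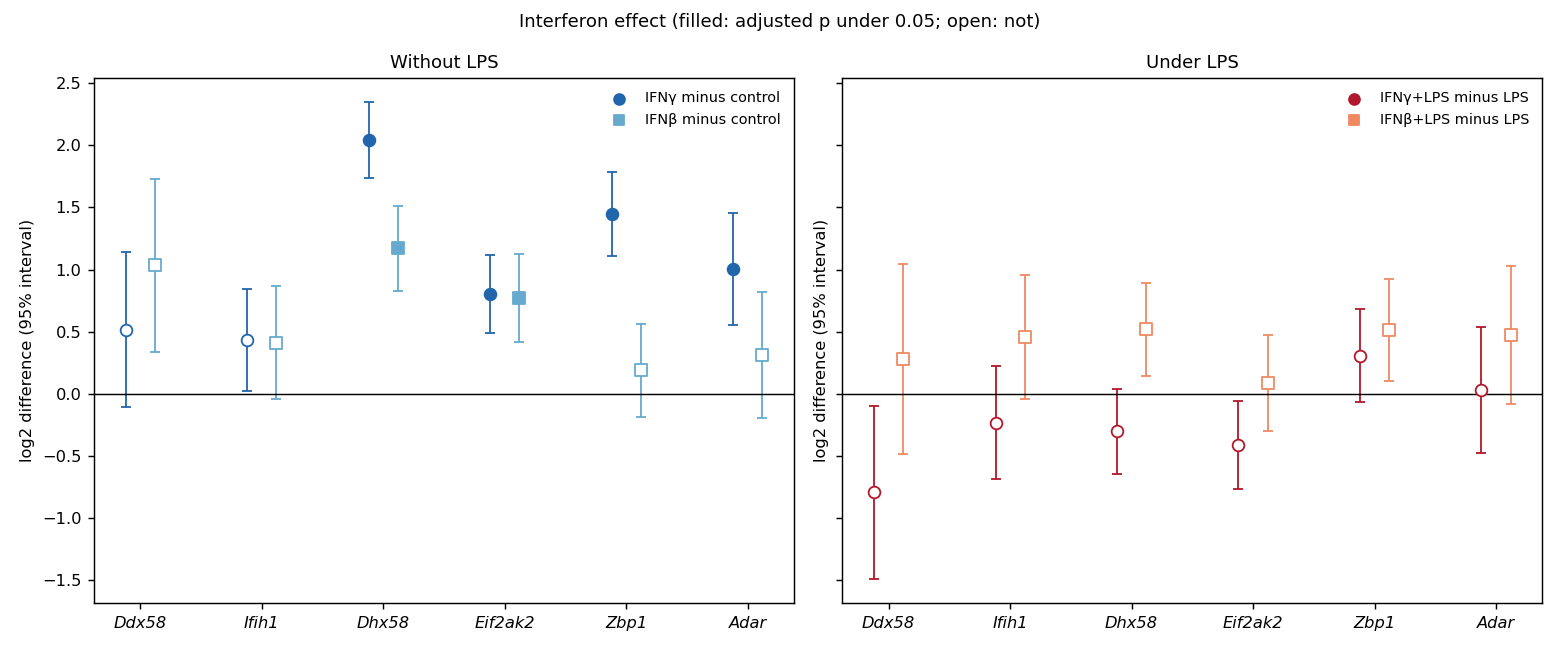
Log2 difference made by each interferon, without LPS (left) and under LPS (right), for each gene, with its 95% interval. Without LPS, IFNγ gives 4 filled points up to 2.04 (Dhx58) and IFNβ 2, and under LPS all 12 points are open and lie between -0.79 and 0.52. The points of Ifih1 on the left are differences between background readings and measure no change.

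The difference between IFNγ-primed and unprimed cells in their response to LPS was tested as an interaction. A negative value means that LPS added less after IFNγ. It was -2.34 ± 0.21 log2 units for Dhx58 (SE, adjusted p 5.01e-06), -1.21 ± 0.22 for Eif2ak2 (0.00212) and -1.14 ± 0.23 for Zbp1 (0.00504). Of all genes 6.56% had a called negative interaction and 6.14% a positive one. For Dhx58 the response to LPS was thus 0.89 log2 units after IFNγ, against 3.23 without interferon, and the level reached was 10.84 ± 0.12 in IFNγ+LPS and 11.14 ± 0.03 in LPS macrophages (SD, n = 3 and 2). Adar, at -0.97 ± 0.32 (adjusted p 0.0582), and Ddx58, at -1.31 ± 0.44 (adjusted p 0.0646), narrowly missed the threshold, and passed it in 9 and 8 of 28 alternatives. Without IFNγ+LPS 1 the value of Ddx58 was -1.64 with an adjusted p of 0.00952. Without the 3 arrays that stood apart it was -1.43 (adjusted p 0.0139), and that of Adar -0.78 (0.0295). Ifih1, at -0.67 ± 0.29 (adjusted p 0.149), has no measured level without LPS.

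The interaction of IFNβ with LPS was called for no member. Limma's unadjusted p was under 0.05 for 2 of the 6, and for 629 of the 7669 genes tested. By adjusted p, 0.0261% of all genes were called positive and 0.13% negative. The values ran from -0.76 ± 0.48 for Ddx58 to 0.32 ± 0.26 for Zbp1. Those of Dhx58, -0.65 (95% interval -1.16 to -0.14), and of Eif2ak2, -0.68 (-1.21 to -0.16), had adjusted p-values of 0.461 and 0.459. The comparisons above share groups of arrays, so their values are not independent of each other.

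Adar and Zbp1 could be read on more than one probe. The probe used for Adar (ILMN_3021272, the brightest) and another (ILMN_3093622) are annotated to one RefSeq transcript, and ILMN_2704372 to a different one. All 3 rose with LPS alone, by 2.87, 2.25 and 2.95 log2 units on the brightest, the differently annotated and the remaining probe, and the values that follow keep this order. With IFNγ alone they differed by 1.01 (adjusted p 0.00276 over 11117 probes), 0.65 (0.0535) and 1.15 (0.000966), so that the differently annotated probe fell short of the threshold. The probes disagreed most on the interaction of IFNγ with LPS, which was -0.97 (adjusted p 0.0610), -0.45 (0.442) and -1.64 (0.00323). They also split on IFNγ against IFNβ, with 0.69, 0.07 and 0.38. On IFNβ+LPS against LPS they gave 0.47, 0.37 and -0.23, and on the interaction of IFNβ with LPS 0.16, -0.20 and -1.01, none of them called. The array IFNβ+LPS 2, highest for Adar on the brightest probe at 10.37, read 8.61 on the differently annotated probe, below its companion at 9.40.

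The other probe of Zbp1 (ILMN_1228653) was dimmer and below background on all IFNβ and control arrays and on 1 of 3 IFNγ arrays, so its differences from those groups are against background readings. It gave the same direction for IFNγ against control, at 0.90 (adjusted p 0.0180), for IFNγ against IFNβ, at 0.98 (0.0267), and for LPS against control, at 2.41 (6.17e-06). Its interaction of IFNγ with LPS was -0.74 (adjusted p 0.241), so that call held on the brighter probe alone.

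**Figure D4:**
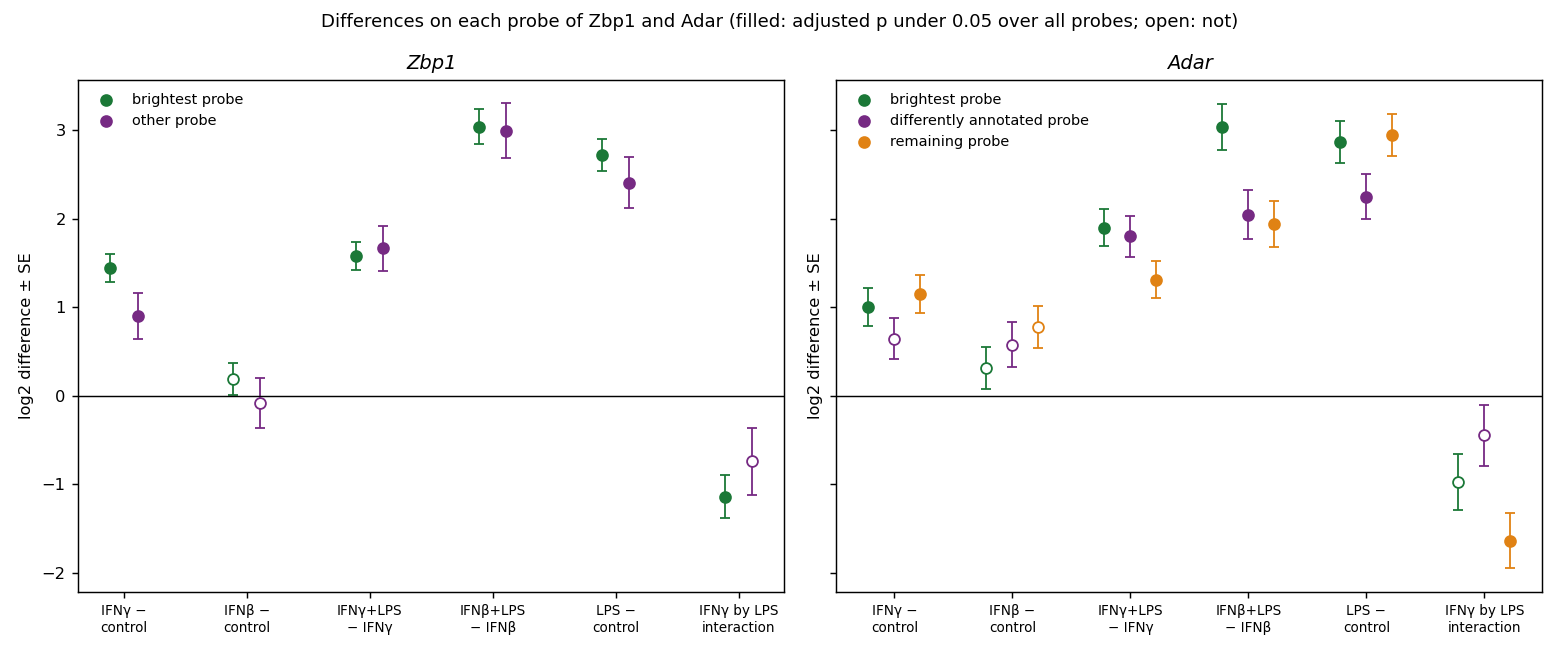
Log2 difference ± SE on each probe of Zbp1 (left) and Adar (right) for 6 comparisons, from 1 fit over 11117 probes. All probes are filled for LPS in each priming state, and the interaction of IFNγ with LPS spreads from -0.45 to -1.64 over the Adar probes.

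The genes around the sensors were counted in lists. Of 17 tested genes of RIG-I-like receptor signalling, the adaptors, kinases and interferon regulatory factors downstream of MAVS, IFNγ raised 3 and lowered 2, with a median log2 difference of 0.19. Of all genes tested 11.5% were raised and 14.6% lowered, so these counts are near the background. The largest difference was that of Irf7, a transcription factor of the interferon genes, at least 2.81-fold higher with IFNγ than in control, where it was below background (adjusted p 2.92e-06). The factor Irf5 was at 0.77 and the kinase Ikbke at 0.71 (adjusted p 0.000710 and 0.00433). LPS alone raised 10 of the 17 and lowered 4, with a median of 0.69, or 0.61 with genes below background at their bound, where 21.2% and 34% of all genes were raised and lowered. Irf7 was at least 45.6-fold higher with LPS than in control, and Ifnb1, the gene of IFNβ, was at least 5.04-fold higher with LPS than in control, where it was below background. Of 26 regulators of these receptors, ubiquitin ligases, deubiquitinases and others, IFNγ raised 4 and lowered 4, near the background of 11.5% and 14.6%, and LPS raised 12 and lowered 5, beside 21.2% and 34% of all genes. Isg15, a ubiquitin-like modifier, and Usp18, the protease that removes it, moved most with IFNγ, by 3.05 and 2.83 log2 units, and with LPS, by 122-fold and 64.2-fold. Mex3c, a ligase reported to modify RIG-I, fell by 0.95 log2 units with IFNγ (adjusted p 0.0150), and Zc3hav1, an antiviral zinc finger protein, was 2.29 higher with LPS (adjusted p 1.57e-06). Mex3c was detected on 1 of 3 IFNγ arrays and Zc3hav1 on 1 of 3 control arrays, so both differences rest partly on background readings.

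In the arm of Eif2ak2 and translation stress, 18 genes were tested. IFNγ raised 1, Ddit3, and lowered 2, Eif2s2 and Atf4, while LPS raised 4 and lowered 6. These are near or below the shares of all genes, 11.5% and 14.6% with IFNγ and 21.2% and 34% with LPS. Ppp1r15a and Ppp1r15b, the subunits that direct the phosphatase undoing the mark PKR sets on eIF2α, were 2.47 and 2.34 higher with LPS, and Prkra, an activator of PKR, fell by 1.45. Of 13 genes of the Zbp1 arm and cell death, IFNγ raised 7 and lowered 1, and LPS raised 9 and lowered 2, beside 11.5% and 14.6% of all genes with IFNγ and 21.2% and 34% with LPS. This list had the largest median of the 6 lists in both comparisons, 0.51 with IFNγ and 1.20 with LPS, or 0.92 with genes below background at their bound. Mlkl, the pore former of necroptosis, was 2.22 higher with IFNγ, and Ripk3, the kinase that activates it, was 1.08 higher in IFNγ+LPS than in LPS (adjusted p 0.00612). In that comparison 4 of the 13 were called higher and none lower, beside 6.81% and 5.97% of all genes.

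Of 23 other genes of RNA editing and double-stranded RNA binding, IFNγ raised 3 and lowered 3, and LPS raised 4 and lowered 5, which is near or below the shares of all genes (11.5% and 14.6% with IFNγ, 21.2% and 34% with LPS). Samhd1, which breaks down deoxynucleotides, moved most, by 2.96 log2 units with IFNγ and 3.23 with LPS. Apobec3, a cytidine deaminase that acts on retroviral DNA, was 1.71 higher with IFNγ and 2.79 higher with LPS. Of 15 other sensors of nucleic acids and their helpers, IFNγ raised 3 and lowered none, and LPS raised 7 and lowered 3, beside the same shares of all genes. Trex1, a nuclease that degrades cytosolic DNA, moved most, by 2.08 log2 units with IFNγ and 3.96 with LPS. IFNγ+LPS lay below LPS for 3 of these, beside 5.97% of all genes, the DNA sensor Aim2 at -1.74 (adjusted p 0.0311) and the endosomal RNA receptors Tlr8 at -1.45 (0.0306) and Tlr3 at -1.39 (0.00525). IFNβ raised 2 of the 26 regulators (Usp18 and Isg15) and 1 of the 17 signalling genes (Irf7). It raised 1 of 18 in the arm of Eif2ak2, 1 of 23 in RNA editing, 1 of 15 other sensors and 0 of 13 in the Zbp1 arm. Of all genes 0.952% were called higher with IFNβ. Some genes stand in more than one list, among them Fadd, Casp8 and Prkra. The median over all genes tested was -0.07 for IFNγ, -0.17 for LPS and -0.03 for IFNγ+LPS against LPS.

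The pattern over the 6 group means, each gene centred on its own mean, was set beside that of 7663 other genes by the root mean square difference in log2 units. Closest to Eif2ak2 were Samd9l (0.10), Ube2l6 (0.15) and Ikbke (0.15). Closest to Dhx58 were Epsti1 (0.15), Gm5431 (0.16) and Stat2 (0.21), and closest to Adar were Slc31a2 (0.12), Oas3 (0.14) and Bcl3 (0.15). Zbp1 had Rmdn3 (0.18), Naa25 (0.19) and Apobec3 (0.19), Ifih1 had Rnd3 (0.19), Gm6377 (0.19) and Mefv (0.21), and Ddx58 had Gm6377 (0.29), Adamts4 (0.31) and Src (0.34). Without LPS the group means of Adamts4 (4.59 to 4.69), Src (4.93 to 4.99) and Mefv (4.65 to 4.83) were about as low as the background readings of Ifih1 (4.70 to 5.14). Their likeness rests partly on such low levels. The median difference to all genes was 1.28 to 2.24, depending on the member. Among genes detected on every array the nearest to Ddx58 were others, Gpr85, Trim30d and Kpna3 (0.39 to 0.41), and Ppm1k (0.16) took the place of Oas3 for Adar, while Ifih1 itself was not among them.

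Among the members themselves, Zbp1 and Adar had the most similar patterns, with a difference of 0.21, and Ifih1 and Dhx58 the least similar, with 1.11. Ddx58 and Ifih1 differed from each other by 0.43 and from each of the other 4 by at least 0.65. The 4 others lay within 0.42 of each other. The values of Ifih1 rest on background readings in 3 of the 6 groups.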

How the data were processed

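RNA of bone marrow-derived macrophages was measured on Illumina arrays from total RNA labelled with biotin, per the labels. The authors' deposited table holds mean bead intensity per probe before normalization, and a detection p-value beside each intensity, per the file headers. A second table deposited by the authors holds log2 values, which served as an alternative, with a lowest correlation of 0.9998 with the values used here. Scanner software, background subtraction and the authors' normalization were not given in the sources used here.

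Intensities were background-corrected in limma 3.58.1 (R 4.3.3) by the normal-exponential model from detection p-values, with an offset of 16, put on a log2 scale and quantile-normalized. Kept were probes whose detection p was under 0.01 throughout at least 1 group, 11117 of 15978. Probe annotation gave 1 symbol for 14994 probes, several for 0 and none for 984, and the brightest probe stood for a gene. Limma fitted 6 group means to 15 arrays, with two-sided moderated tests for 11 comparisons, Benjamini-Hochberg adjustment over 7669 genes, and calls at an adjusted p under 0.05. A fold against a group with no detected array was taken against each array's lowest detected signal, or the probe's own where higher. The fit was tested on simulated data. Alternatives changed background, offset, normalization, filter, probe, variance, weights, replicate block, arrays fitted and arrays left out; leaving out 3 arrays together was added after seeing the data. The members, the 6 gene lists, the markers and the naming rule (up to 3 of the largest called genes of a list per comparison, and 3 like genes per member) were chosen with earlier results of these data known.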

Additional observations from a re-analysis of the deposited data

Results flagged for a closer look

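The effect of IFNγ differed between cells with and without LPS at 3 genes by the test of the interaction in limma. The difference of differences was -2.34 log2 units for Dhx58, the helicase LGP2, which was 2.04 higher in IFNγ than in control macrophages and differed by -0.30 between IFNγ+LPS and LPS. For Eif2ak2, the kinase PKR, it was -1.21, with 0.80 without LPS and -0.41 under it. For Zbp1, the Z-form nucleic acid sensor, it was -1.14, with 1.45 without LPS and 0.31 under it. The other probe of Zbp1 gave -0.74 and was not called (adjusted p 0.241). Without the 3 arrays that stood apart the values were -2.27 for Dhx58, -1.40 for Eif2ak2 and -0.95 for Zbp1, each with an adjusted p under 0.05. Slide and LPS cannot be told apart in this design. Groups of 2 or 3 arrays are too small for a test of single outlying arrays.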

How the results depend on the processing

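Over 66 results, 1873 values were computed under the alternatives: 1774 kept direction and side of the threshold, 51 lost a call, 48 gained one and 0 reversed a called value, while 24 changed sign with no call in either setting. All 6 genes stayed higher with LPS in each priming state in every setting that tested them, Ifih1 against background readings. The 4 genes called with IFNγ against control stayed called too, except Adar on its differently annotated probe. Of the genes higher with IFNβ than in control (2), 1 was left under median scaling, no detection filter, the replicate block, only the groups compared or only their slide, and 1 to 2 when 1 array was left out. Of those lower in IFNγ+LPS than in IFNβ+LPS (3), 1 was left under median scaling, no detection filter, the replicate block or only that slide, 0 with only the groups compared, and 1 to 4 when 1 array was left out. Between IFNγ+LPS and LPS, 1 was lower without background correction or with array weights, 0 to 1 when 1 array was left out, and 2 lower and 1 higher without the 3 arrays that stood apart. Array weights put 1 gene lower in IFNγ than in IFNβ. Negative interactions of IFNγ with LPS (3) became 5 under cyclic loess, detection on all arrays (which leaves Ifih1 out), trended and robust variance, array weights or without the 3 arrays. The causes were not tested. Over all genes, the share of calls that were higher ones moved from the main 44.2% to 56.0% under cyclic loess for IFNγ against control, and under median scaling from 50.9% to 62.9% for IFNγ+LPS against IFNβ+LPS, from 40.6% to 51.4% for IFNγ+LPS against IFNγ and from 60.5% to 48.5% for IFNβ+LPS against LPS. Under cyclic loess it moved from 38.3% to 49.3% for IFNβ+LPS against IFNβ and from 16.7% to 27.3% for the IFNβ interaction.

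Replicate numbers showed no uniform pairing of the arrays: of 33 same-numbered pairs, 5 correlated over 0.1 and 9 under -0.1 (r from -0.44 to 0.22). Between groups of 2 arrays both pairs must give the same value, as 0.22 for IFNβ+LPS and LPS, so the counts hold repeats. Pairs with different numbers were not compared. With the replicate block, 765 genes had a called IFNγ interaction, against 974 without it. Log2 differences had a median SE of 0.183 to 0.304, and levels near background, as of Ifih1 without LPS, set no fold beyond a bound.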
